A study of Mus musculus with 35 samples.

Results

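The 10 genes described here encode 8 matrix metalloproteinases (Mmp2, Mmp3, Mmp8, Mmp9, Mmp10, Mmp12, Mmp13 and Mmp14) and 2 tissue inhibitors of metalloproteinases (Timp1 and Timp2). They were chosen by symbol from the 36106 genes of the deposited count table, and all 10 were found. RNA sequencing of whole skin had been done in 19 female C57BL/6J mice, an inbred strain with no transgene, aged 10 weeks at the start. Radiated mice had 25 Gy to the flank on the left side, given over 420 s at 3.6 Gy per min, and the treated skin was shaved with a razor afterwards. The 35 libraries were 3 from sham mice, which were not radiated, and 4 labelled radiated and 4 labelled control at each of weeks 1, 2, 3 and 4. Radiated biopsies came from the radiated site, and the site of the control biopsies is not given in the labels. A control library was taken to come from the same mouse as the radiated library of the same week and number, since 35 samples came from 19 mice, so a control is skin of a radiated animal and sham skin is from other animals.

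Matrix metalloproteinases are zinc-dependent enzymes, secreted or held in the cell membrane, that cut collagen and other matrix proteins. Most are made as inactive proenzymes, and tissue inhibitors block the active enzyme. In injured skin, keratinocytes, fibroblasts, macrophages and neutrophils are all known to make members of the family. Mmp13 and Mmp8 are collagenases, Mmp3 and Mmp10 are stromelysins, Mmp2 and Mmp9 are gelatinases, Mmp12 is the macrophage elastase and Mmp14 is a membrane-type enzyme that activates the Mmp2 proenzyme with Timp2 as the bridge.

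In the GENCODE M21 annotation of GRCm38, 5 of the 8 metalloproteinase genes lie in a single stretch of chromosome 9. Mmp13 lies at 9:7272514-7283331, Mmp12 at 9:7344381-7369499, Mmp3 at 9:7445822-7455975, Mmp10 at 9:7502352-7510240 and Mmp8 at 9:7558456-7568485, all on the plus strand. The others are apart: Mmp2 at 8:92827291-92853420, Mmp9 at 2:164940780-164955850 and Mmp14 at 14:54431612-54445364, all on the plus strand, Timp2 at 11:118301069-118355740 on the minus strand and Timp1 at X:20870166-20874735 on the plus strand. Every value below is over the whole gene, all exons included. Timp1 lies inside Syn1, which is on the opposite strand, and the end of Mmp12 overlaps that of Mmp1b on the opposite strand. Whether the counting used strand is not stated, and whether exons of these pairs overlap was not checked. It is therefore not known if reads of such a pair were told apart.

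The RefSeq promoter table (GRCm38.p6) held windows for 8 of the 10 genes, each with 250 bases before the transcript start and 50 after it, and Mmp12 had windows at 2 starts. The AP-1 motif TGANTCA, searched on both strands, was found in 4 of these 9 windows and in 7.81% of all 32851 windows. AP-1 is the Fos and Jun transcription factor pair, known to act on stromelysin and collagenase promoters. The 4 windows all belong to genes of the chromosome 9 stretch, and the 150 bases before each start are shown because the results below turn on these genes. Capitals mark the TGANTCA match. The motif reads the same on either strand, so a match has no strand of its own.
Mmp13, chr9:7272364-7272513: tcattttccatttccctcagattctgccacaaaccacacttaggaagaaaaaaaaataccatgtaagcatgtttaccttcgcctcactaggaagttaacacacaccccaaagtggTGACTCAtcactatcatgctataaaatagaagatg
Mmp3, chr9:7445672-7445821: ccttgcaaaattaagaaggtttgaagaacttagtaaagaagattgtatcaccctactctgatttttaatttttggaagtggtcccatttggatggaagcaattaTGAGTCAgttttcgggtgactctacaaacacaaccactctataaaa
Mmp10, chr9:7502192-7502341: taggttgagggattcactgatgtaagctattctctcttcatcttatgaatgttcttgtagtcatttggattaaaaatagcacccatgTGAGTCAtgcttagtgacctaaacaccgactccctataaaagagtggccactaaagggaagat
Mmp12 second start, chr9:7347224-7347373: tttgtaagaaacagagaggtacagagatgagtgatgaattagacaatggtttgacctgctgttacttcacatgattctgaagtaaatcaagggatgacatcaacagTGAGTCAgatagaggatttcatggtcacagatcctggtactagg
The first base of the match stood at -35 from the start in Mmp13, -46 in Mmp3, -63 in Mmp10 and -44 at the second start of Mmp12. The TATA sequence TATAAA was in 5 of the 9 windows and in 13.6% of all windows. It began at -29 in Mmp10, -16 in Mmp13, -7 in Mmp3 and -3 in Mmp8, there on the minus strand. At the second start of Mmp12 it began at 5, after the start. The ETS sequence AGGAAG was in 6 of 9 windows (35.4% of all) and TGTGGT of RUNX factors in 2 (16.8%). A loose NF-kB motif was in 4 (50.8%). A match is a run of letters and not a measured binding site.

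Levels are CPM, a gene's count scaled to a library of 1000000 counts after TMM factors, and a gene is called when the adjusted p of edgeR's quasi-likelihood F test is under 0.05 over all genes tested. The 35 libraries held 17362853 to 28487885 counts, and 3 counts, the floor used here, equal 0.114 to 0.175 CPM. The basal keratinocyte markers Krt5, Krt14, Krt15 and Trp63 summed to between 5270 and 15100 CPM in every library. Within that sum the genes moved apart: against control skin Krt14 rose by 1.61 and 2.03 on the log2 scale in weeks 3 and 4, while Krt15 fell by 2.89 and 4.48 and Trp63 by 1.61 and 1.37. Mmp8, Mmp10 and Mmp13 were too low to be tested between radiated and control skin in weeks 1 and 2, so those weeks have 7 tested members. The labels do not tie single samples to mice, so p-values measure the spread between these libraries.

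Against control skin, the calls came in weeks 3 and 4. In week 1 no member was called, of 7 tested (0% of all genes were called in either direction), 1 had an unadjusted p under 0.05 in edgeR (14.1% of all genes), and DESeq2 called 0 (2.37%). In week 2 again 0 of 7 were called (0.00577% of all genes in either direction), while 6 had an unadjusted p under 0.05 in edgeR (13.8% of all genes) and DESeq2 called 4 (4.23%). In week 3, 9 of 10 were called higher and 0 lower (13.6% of all genes were called higher and 27.2% in either direction). In week 4 all 10 were called higher (24.2% of all genes higher and 48.4% in either direction). In weeks 3 and 4 Mmp8, Mmp10 and Mmp13 passed the filter through their radiated libraries, so they had to differ to be tested at all. Of the 7 genes tested in every week, 6 were higher in week 3 and 7 in week 4. The median log2 fold change of these 7 was 0.26, 0.91, 1.93 and 3.54 in weeks 1 to 4, beside 0.05, 0.00, 0.08 and 0.02 over all genes tested.

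**Figure D1:**
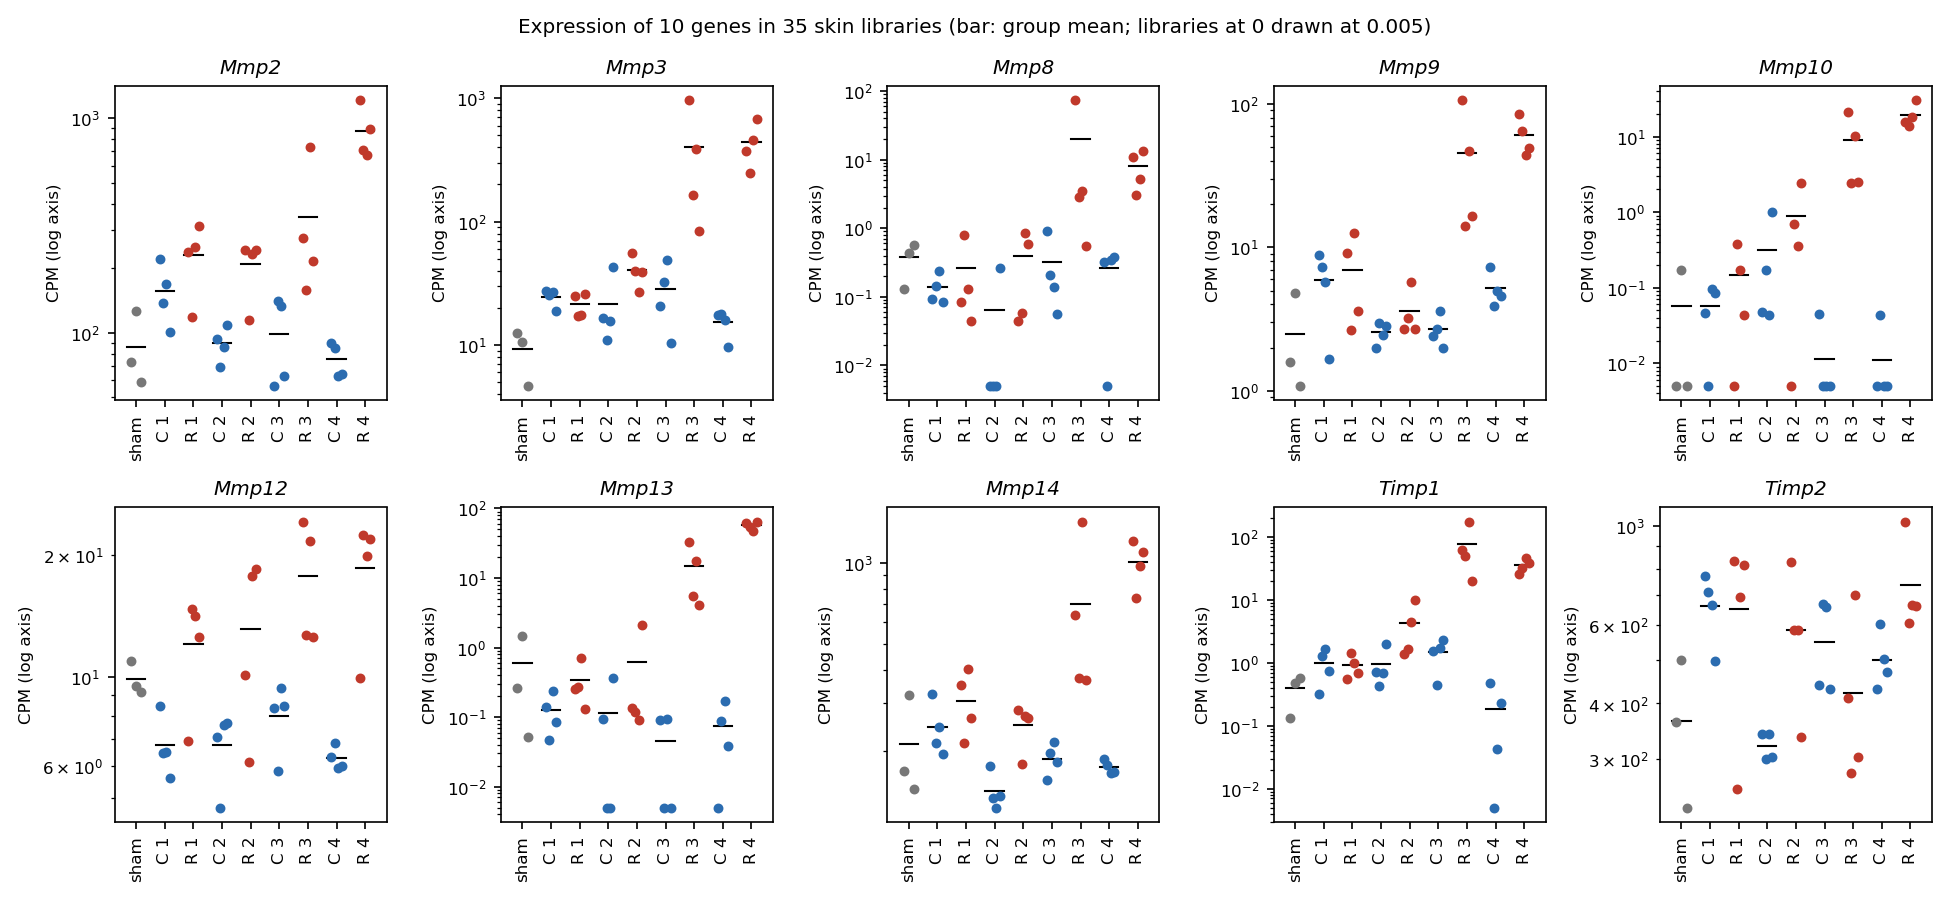
CPM of each gene in each of the 35 libraries on a log axis, by group (sham; C control and R radiated, weeks 1 to 4); bars are group means and libraries at 0 are drawn at 0.005. Radiated libraries of week 4 stand above those of control skin in all 10 panels, and Timp2 is the panel with the smallest gap.

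Mmp13, the main interstitial collagenase of mice, rose in weeks 3 and 4 from a level at the floor. Control skin had 0, 0.0884, 0.171 and 0.0384 CPM in week 4, and radiated skin had 61.5, 54.9, 47.6 and 64.2 CPM. In week 3 the radiated libraries had 32.8, 5.50, 17.3 and 4.14 CPM and the control libraries 0.0900, 0, 0.0929 and 0. The groups did not overlap in either week. Summed over 4 libraries, 1381 counts stood against 4 in week 3, a ratio of 324 after scaling (95% counting interval 126 to 1190), and 5434 against 7 in week 4, a ratio of 739 (359 to 1840). The adjusted p in edgeR was 0.00133 in week 3 and 2.2e-07 in week 4. These intervals cover counting error only. The fitted log2 fold changes were 8.19 and 9.45, or 7.46 in week 3 without radiated replicate 1 and 10.16 in week 4 without control replicate 3.

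Mmp8, the collagenase that neutrophils store in granules, was called higher in both weeks. Its radiated libraries of that week had 73.4, 2.84, 3.50 and 0.552 CPM and its control libraries 0.900, 0.205, 0.139 and 0.0571 CPM, so that the lowest radiated library lay below the highest control. The log2 fold change was 5.93 ± 1.59 (SE, n = 4 and 4, edgeR adjusted p 0.0227), and it was 2.81 without radiated replicate 1 (adjusted p 0.0477) and 7.14 without control replicate 1 (0.0399). Without control replicate 2, 3 or 4 of that week the adjusted p in edgeR was 0.063, 0.0631 or 0.0638, which ends the call. In week 4 the radiated libraries had 10.8, 3.06, 5.24 and 13.2 CPM and the control libraries 0.317, 0, 0.342 and 0.384 CPM, without overlap. That difference was 4.92 ± 0.67 (edgeR adjusted p 0.000247).

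Markers of neutrophils moved with Mmp8. The summed level of the 11 listed markers was 10.8 to 17.3 CPM in control and 103 to 811 CPM in radiated skin of week 3, and 12.8 to 24.6 against 209 to 440 CPM in week 4. Of 7 markers tested, 5 were called higher in week 3 and 6 in week 4, with S100a9, a calcium-binding protein, at 7.47 and 7.37 (log2). In week 3 Mpo (0.43) and Ngp (4.89) were not called (edgeR adjusted p 0.497 and 0.0514). The defining marker Ly6g had 187 and 45 counts in the radiated groups of weeks 3 and 4, and Elane had 4 and 1. The highest neutrophil sum, 811 CPM, was in radiated replicate 1 of week 3, the library with 73.4 CPM of Mmp8. In radiated replicate 2 of week 1 the sum was 93.1 CPM with Mmp8 at 0.809 CPM. The part of these markers in the result was not tested. In whole skin, fewer cells of a type and less RNA per cell cannot be told apart, and the same holds for more cells and more RNA.

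Mmp3, or stromelysin-1, cuts many matrix proteins and activates other proenzymes. It was found in all 35 libraries. Sham skin had 12.6, 10.6 and 4.65 CPM. In week 3 radiated skin had 961, 165, 388 and 84.4 CPM and control skin 20.6, 32.7, 49.2 and 10.4 CPM. In week 4 radiated skin had 371, 247, 462 and 673 CPM and control skin 17.5, 17.8, 16.0 and 9.69 CPM. The groups did not overlap in either week, and the 4 radiated libraries of week 3 differed more among themselves than those of week 4. On the log2 scale the difference was 3.86 ± 0.785 (edgeR adjusted p 0.0074) and 4.86 ± 0.339 (5.52e-06), and the former was 2.94 without radiated replicate 1.

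Mmp10, or stromelysin-2, which is made by keratinocytes at wound edges, was at or under the floor in control skin of weeks 3 and 4, with 1 count in each group of 4 libraries. In radiated skin it had 21.1, 2.42, 10.3 and 2.49 CPM in week 3 and 15.6, 13.8, 18.2 and 30.2 CPM in week 4. The ratio of summed counts was 787 (839 against 1 count, 95% counting interval 141 to 31100) and 1740 (1832 against 1, 313 to 68900). The adjusted p in edgeR was 0.00165 and 2.11e-06. The fitted log2 fold change of week 3, 9.07, was 8.23 without radiated replicate 1 and 10.67 without control replicate 1, and that of week 4, 10.22, was 11.84 without control replicate 2. In week 2 the gene stood above the floor in 3 of 4 radiated libraries, with 0, 0.701, 0.361 and 2.45 CPM, and control skin had 0.0475, 0.172, 0.0437 and 0.990 CPM. In that week replicate 4 was the highest in radiated and in control skin.

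The wound keratins Krt6a, Krt6b, Krt16 and Krt17, which keratinocytes turn on after injury, summed to 4510 to 15000 CPM in radiated skin of week 3 and 10000 to 13400 CPM in week 4. Control skin had 707 to 850 and 494 to 553 CPM. All 4 genes were called higher in both weeks, Krt17 in week 3 not with the replicate block (0.69, edgeR adjusted p 0.0419, and 0.0764 with it). Their part in the Mmp3, Mmp10 and Mmp13 results was not tested.

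The gelatinases Mmp2 and Mmp9 cut denatured collagen and basement membrane collagen. Mmp2, a product of fibroblasts, had 277, 159, 731 and 217 CPM in radiated skin of week 3 against 56.5, 141, 134 and 62.7 CPM in control skin. In week 4 it had 1210, 712, 673 and 889 CPM against 89.6, 84.6, 63.2 and 64.3 CPM. Every radiated library of both weeks stood above every control library of its week. The log2 fold change was 1.84 ± 0.508 in week 3 (edgeR adjusted p 0.0254) and 3.54 ± 0.219 in week 4 (3.45e-06). The week 3 value was 1.17 without radiated replicate 3, and without control replicate 1 or 4 its adjusted p in edgeR was 0.0683 or 0.0719, which ends the call.

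Mmp9, made by neutrophils, macrophages and keratinocytes, had 106, 14.2, 46.6 and 16.6 CPM in radiated and 2.43, 2.70, 3.62 and 2.00 CPM in control skin of week 3. In week 4 it had 84.7, 65.2, 44.2 and 49.6 CPM against 7.25, 3.89, 4.95 and 4.61 CPM. The groups were apart in both weeks. This was a log2 fold change of 4.12 ± 0.658 (edgeR adjusted p 0.00287) and 3.57 ± 0.26 (6.88e-06), and the week 3 value was 3.28 without radiated replicate 1.

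Mmp14 was found at over 100 CPM in every library and rose in weeks 3 and 4. Its week 3 libraries had 642, 373, 1420 and 365 CPM in radiated and 156, 196, 215 and 181 CPM in control skin. In week 4 they had 1200, 740, 969 and 1100 CPM against 186, 177, 166 and 167 CPM. No radiated library reached down to a control library in these weeks. Its log2 fold change was 1.93 ± 0.418 (edgeR adjusted p 0.00938) and 2.54 ± 0.149 (3.15e-06), with 1.32 in week 3 when radiated replicate 3 was left out. Mmp2 and Mmp14 were also the members whose radiated libraries all lay above all control libraries in week 2, 2 of 7 tested (3.97% of all genes), at log2 fold changes of 1.22 (edgeR adjusted p 0.126) and 0.81 (0.139). Without radiated replicate 2 of that week both were called, at 1.42 (0.0124) and 0.94 (0.0352).

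In week 2 the pairing by mouse changed calls. With the replicate block, Mmp2 (1.17, edgeR adjusted p 0.0104), Mmp14 (0.80, 0.0302) and Timp1 (2.01, 0.0315) were called higher, 3 of 7 (2.85% of all genes were called higher with that block). The same-numbered libraries of week 2 were the ones that deviated together most, with a mean correlation of 0.17.

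Markers of fibroblasts and macrophages were called in part in week 3 and in full in week 4. The 7 fibroblast markers, collagen genes among them, summed to 12000 to 21500 CPM in radiated and 2100 to 12100 CPM in control skin of week 3, with 2 of 7 called higher, and to 28000 to 47200 against 2240 to 4670 CPM in week 4, with 7 of 7 called higher. The 8 macrophage markers summed to 1080 to 2720 against 373 to 1180 CPM in week 3, with 4 of 8 called higher (5 with the replicate block, which added Adgre1 and C1qb and lost Mrc1), and to 1400 to 2020 against 211 to 342 CPM in week 4, with 8 of 8 higher. Of the 4 skeletal muscle markers, 3 fell in each of these weeks, or 1 in week 4 with the replicate block. The 4 mast cell markers (Cma1, Cpa3, Mcpt4 and Tpsb2) were all called higher in both weeks, and summed to 29.9 to 68.2 against 13.1 to 24.2 CPM in week 3 and 70.3 to 104 against 20.3 to 29.8 CPM in week 4. Of the 4 endothelial markers (Pecam1, Cdh5, Kdr and Vwf), 1 was called higher in week 3 (0 with the replicate block) and 4 in week 4, with sums of 193 to 444 against 172 to 209 and 372 to 484 against 164 to 280 CPM. Of the 4 smooth muscle markers, Myh11 and Cnn1 fell in both weeks. Of the 4 adipocyte markers, Adipoq fell in week 3 and none was called in week 4 (1 with the replicate block, also Adipoq). Of the T cell markers, 0 of 3 were called in week 3, and in week 4 Cd3e fell and Trac rose, the latter not with the replicate block (edgeR adjusted p 0.0711). Whether any of these markers has a part in the member results was not tested.

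Mmp12, which cuts elastin, had the smallest fitted fold change of the 8 enzymes in week 4. In week 3 it had 24.2, 12.7, 21.7 and 12.5 CPM in radiated and 8.33, 5.82, 9.34 and 8.45 CPM in control skin. In week 4 it had 9.94, 22.5, 19.9 and 21.9 CPM against 6.30, 6.85, 5.94 and 6.00 CPM. Radiated replicate 1 of week 4 was the lowest of the 4 and still above all control libraries. The differences were 1.19 ± 0.273 (log2, edgeR adjusted p 0.0122) and 1.57 ± 0.236 (0.00045).

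Timp1, an inhibitor that many cells switch on under inflammatory signals, rose in weeks 3 and 4. It had 61.9, 49.6, 176 and 19.8 CPM in radiated and 1.53, 0.450, 1.72 and 2.28 CPM in control skin of week 3. In week 4 it had 25.9, 32.3, 46.2 and 39.1 CPM against 0.476, 0, 0.0427 and 0.231 CPM. The groups were far apart in both weeks, and the highest single library, at 176 CPM, was in week 3. The log2 fold change was 5.73 ± 0.754 in week 3 (edgeR adjusted p 0.00164), or 4.92 without radiated replicate 3. In week 4 summed counts of 3419 stood against 16, a ratio of 203 (95% counting interval 125 to 356), with an edgeR adjusted p of 4.38e-06, and the fitted log2 fold change of 7.62 was 8.49 without control replicate 1. In week 2 the radiated libraries had 1.37, 1.69, 4.51 and 10.0 CPM and the control libraries 0.712, 0.430, 0.698 and 2.03 CPM, which overlap.

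Timp2, which is made steadily in many tissues, had 412, 279, 698 and 303 CPM in radiated and 441, 667, 658 and 432 CPM in control skin of week 3. That difference was -0.35 ± 0.303 on the log2 scale and was not called (edgeR adjusted p 0.418). In week 4 the radiated libraries had 1020, 606, 666 and 660 CPM and the control libraries 431, 603, 502 and 471 CPM, which do not overlap but nearly touch. The log2 fold change was 0.57 ± 0.176 (edgeR adjusted p 0.0234). With the replicate block the adjusted p in edgeR was 0.0657, in a fit of all 35 libraries 0.156, and without control replicate 3 it was 0.054, so the call ends in each.

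Of 5 other inhibitors listed, 3 were tested against control skin, and 2 were lower in week 3 and 3 in week 4 (48.4% of all genes were called in either direction in week 4). Timp3, which binds to the matrix, fell from 680 ± 239 CPM (SD, n = 4) in control to 180 ± 71.4 CPM in radiated skin of week 3 and from 759 ± 98.3 to 255 ± 51.0 CPM in week 4. The log2 fold changes were -1.89 (edgeR adjusted p 0.00369) and -1.57 (3.87e-05), and against sham skin, at 669 ± 197 CPM, they were -1.85 (0.0118) and -1.35 (0.00453). Reck, a membrane-anchored inhibitor, fell against control skin by 0.80 and 1.12 on the log2 scale in weeks 3 and 4. Timp4 fell by 2.26 in week 4. Against sham skin, Reck and Timp4 differed by 0.18 and -0.25 in week 4 (edgeR adjusted p 0.656 and 0.64), and control skin of week 4 itself stood above sham by 1.25 and 1.96 (0.0254 and 0.0477). A2m, a broad protease inhibitor, went the other way in week 4, with 72 summed counts in radiated skin against 3 in control and 0 in sham skin. It did not pass the filter against control skin, and against sham, where it passed through its radiated libraries, it was called higher (edgeR adjusted p 0.00866).

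**Figure D2:**
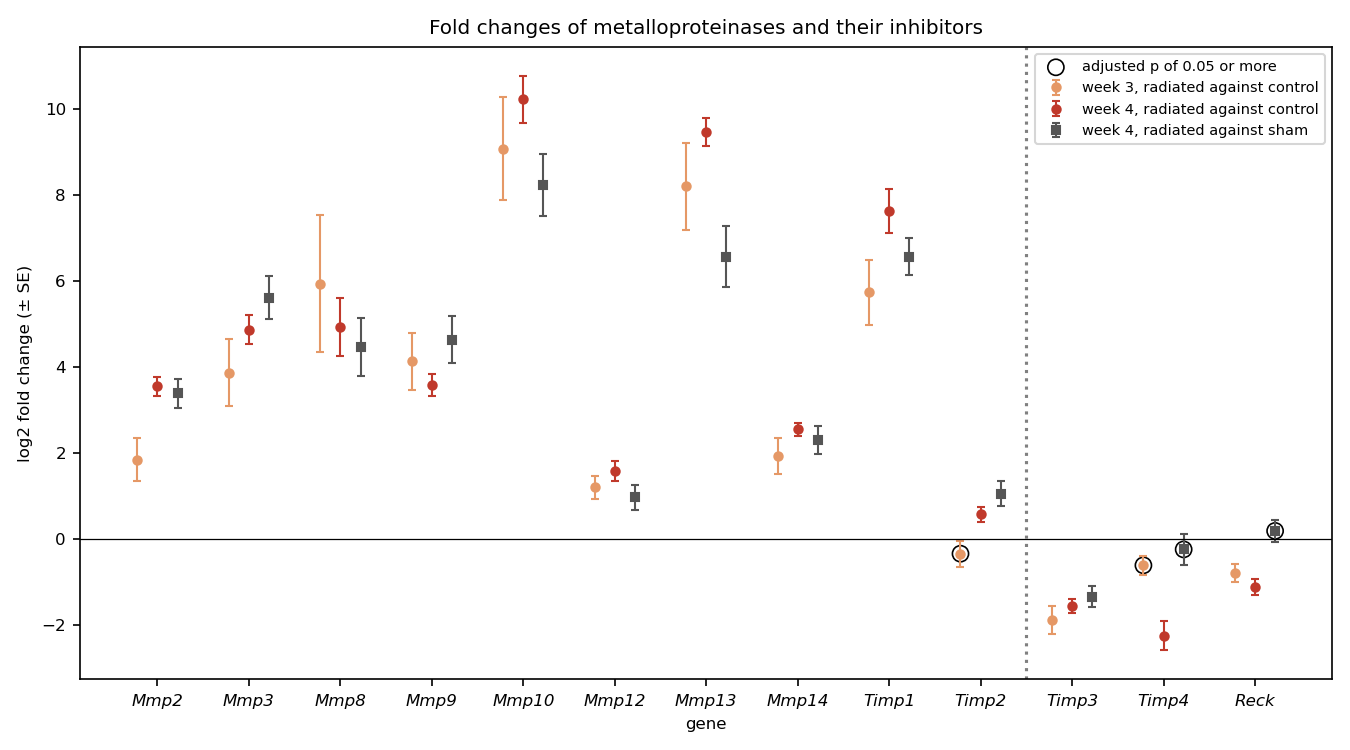
Log2 fold change ± SE of the 10 genes (left of the dotted line) and the 3 other inhibitors that were tested against control skin, for radiated against control skin in weeks 3 and 4 and radiated against sham skin in week 4; open circles mark adjusted p of 0.05 or more. Timp3 lies below 0 in all 3 comparisons, Timp4 and Reck near 0 against sham, and the fitted values of Mmp10 and Mmp13 depend on the prior count because control skin had 1 to 7 counts.

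Whether the effect of radiation differed between the 4 weeks was tested in 1 edgeR model of 32 libraries. Of the 10 members, 7 were called (15.6% of all genes): Mmp2, Mmp3, Mmp9, Mmp10, Mmp13, Mmp14 and Timp1. Mmp10 and Mmp13, with 1 to 25 and 4 to 11 summed counts in the control skin of each week, entered this model through their radiated libraries, and of the 7 genes tested in every comparison 5 were called. The adjusted p was 7.13e-05 for Timp1 and 8.62e-05 for Mmp3, and it was 0.239 for Mmp8, 0.529 for Mmp12 and 0.119 for Timp2. With the replicate block Mmp8 was called too (edgeR adjusted p 0.0267). From week 1 to 2 no member was called (0% of all genes were), with 2 at an unadjusted p under 0.05 (6.7% of all genes). The differences between those weeks were 2.33 for Timp1, 1.10 for Mmp3 and 0.87 for Timp2 on the log2 scale (edgeR adjusted p 0.736, 0.816 and 0.742). From week 2 to 3 the difference grew for 4 members (6.9% of all genes): Mmp3 (edgeR adjusted p 0.0158), Mmp9 (0.00565), Mmp10 (0.0111) and Timp1 (0.0234), of which Mmp3, Mmp9 and Timp1 are among the 7 tested in every comparison. With the replicate block Mmp13 was called too (0.00266, and 0.0549 without it). From week 3 to 4 no member was called (0.419% of all genes), with 2 at an unadjusted p under 0.05 (13.9% of all genes). DESeq2 was not run on these terms.

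Sham skin comes from animals that were never radiated, and the radiated-against-sham and radiated-against-control comparisons share the radiated libraries. Sham skin also differed in its hair follicle markers (Krt71, Krt25, Krt27, Krt28 and Tchh), which summed to 2050 to 32900 CPM in sham. In radiated skin they summed to 16.6 to 112, 12.8 to 39.3, 7.88 to 1060 and 18.8 to 5710 CPM in weeks 1 to 4, and 5, 5, 1 and 0 of 5 were called lower than in sham. In control skin they summed to 17.7 to 6570, 7.64 to 2480, 21.0 to 1870 and 20.7 to 32.3 CPM, with 0, 0, 1 and 5 called lower than in sham. Against control skin, all 5 were called higher in radiated skin of week 4 by edgeR, 3 with the replicate block and 0 by DESeq2. The part of hair follicles in the member results was not tested. Against sham, 0 of 7 tested members were called in week 1 (1.75% of all genes in either direction), 3 had an unadjusted p under 0.05 in edgeR (16.6% of all genes) and DESeq2 called 2 (6.78%). In week 2, 2 of 8 were higher (2.16% of all genes were called higher): Mmp3 at 2.11 ± 0.374 (edgeR adjusted p 0.0194) and Timp1 at 3.48 ± 0.84 (0.049). These calls rest on single libraries. Without sham replicate 2 or 3 the adjusted p for Mmp3 was 0.0753 or 0.0641, and for Timp1 it lay between 0.0524 and 0.164 in the 6 fits that lost the call, which left out radiated replicate 2, 3 or 4 or sham replicate 1, 2 or 3. Without radiated replicate 4 its log2 fold change was 2.68. With total-count scaling the adjusted p for Timp1 was 0.053. DESeq2 also called Mmp2 in week 2 (DESeq2 adjusted p 0.00397, and 0.0617 in edgeR).

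In week 3, 6 of 10 members were higher than in sham (10.4% of all genes were called higher): Mmp2 at 2.05, Mmp3 at 5.46, Mmp9 at 4.23, Mmp10 at 7.14, Mmp13 at 4.64 and Timp1 at 7.66 (log2). Mmp8, Mmp10 and Mmp13 had 24, 4 and 41 summed counts in sham skin and passed the filter in weeks 3 and 4 through their radiated libraries, so the counts over 10 members here lean on genes that had to be high in radiated skin to be tested. Mmp8 was at 5.78 (edgeR adjusted p 0.0574), Mmp12 at 0.90 (0.0679), Mmp14 at 1.77 (0.0566) and Timp2 at 0.25 (0.692). DESeq2 called Mmp12 and Mmp14 (DESeq2 adjusted p 0.0281 and 0.0049) and gave no adjusted p for Mmp8. Of the 7 genes tested in every comparison, edgeR called 4 higher. These calls rest on 3 sham libraries. Mmp2 lost its call without sham replicate 1, 2 or 3 (0.106, 0.0651 and 0.116) and without radiated replicate 1 (0.0532), while Mmp9 and Mmp13 lost theirs without sham replicate 1 or 3 (0.057 and 0.0605 for Mmp9, 0.0757 and 0.0648 for Mmp13). Leaving out radiated replicate 4 turned Mmp8 (0.0224), Mmp12 (0.0392) and Mmp14 (0.0331) into calls. Without radiated replicate 1 the fold changes were 4.55 for Mmp3, 3.40 for Mmp9, 6.30 for Mmp10 and 3.91 for Mmp13, and without radiated replicate 3 they were 1.43 for Mmp2 and 6.89 for Timp1. Without sham replicate 2 they were 5.18 for Mmp9, 10.70 for Mmp10 and 6.55 for Mmp13.

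In week 4 all 10 were higher than in sham (15.2% of all genes were called higher), among them the 7 tested in every comparison. The log2 fold changes were 3.38 for Mmp2, 5.60 for Mmp3, 4.46 for Mmp8, 4.63 for Mmp9, 8.23 for Mmp10, 0.96 for Mmp12, 6.56 for Mmp13, 2.29 for Mmp14, 6.56 for Timp1 and 1.05 for Timp2. Sham replicate 2 had most of the Mmp10 and Mmp13 counts in sham skin, at 0.173 and 1.47 CPM. Without it the fold changes were 11.82 and 8.44, and that of Mmp9 was 5.55. Mmp12 (edgeR adjusted p 0.0363) and Timp2 (0.0284) are the weakest of these calls. Mmp12 lost its call when radiated replicate 2, 3 or 4 or any sham library was left out (0.0605 to 0.0995), and Timp2 lost it without radiated replicate 1 or 4 or sham replicate 1 or 3 (0.0503 to 0.0701).

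Between control skin of radiated mice and sham skin, 1 call was made in the 4 weeks. In week 1, 1 of 7 members was called (4.92% of all genes in either direction): Mmp3, at 24.7 ± 3.98 CPM (SD, n = 4) against 9.30 ± 4.15 CPM in sham (n = 3), a log2 difference of 1.40 (edgeR adjusted p 0.0464). In that week 4 members had an unadjusted p under 0.05 in edgeR (27.3% of all genes) and DESeq2 called 3 (16.6%). The Mmp3 call was lost with total-count scaling (0.0532), the fit of all 35 libraries (0.132) and without any control library or sham replicate 2 or 3 (0.0525 to 0.121). In week 2, 0 of 7 were called (2.44% of all genes), with 2 at an unadjusted p under 0.05 in edgeR (21.1%) and 0 called by DESeq2 (10.7%). In week 3, 0 of 7 were called (11.4% of all genes), with 2 at an unadjusted p under 0.05 in edgeR (29.7%) and 2 called by DESeq2 (19.9%). In week 4, 0 of 7 were called (3.65% of all genes), with 1 at an unadjusted p under 0.05 in edgeR (22%) and 1 called by DESeq2 (10.3%), Mmp12 at -0.66 (edgeR adjusted p 0.0507).

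The radiated libraries of week 3 differed among themselves. Replicate 1 was the highest of the 4 for 6 members (Mmp3, Mmp8, Mmp9, Mmp10, Mmp12 and Mmp13), and replicate 3 for the other 4 (Mmp2, Mmp14, Timp1 and Timp2). Replicate 4 was the lowest for 6 members and replicate 2 for 4. Replicate 1 also had the highest neutrophil sum (811 CPM), and replicate 3 the highest fibroblast and macrophage sums (21500 and 2720 CPM). In week 4 no library was highest for more than 4 members.

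**Figure D3:**
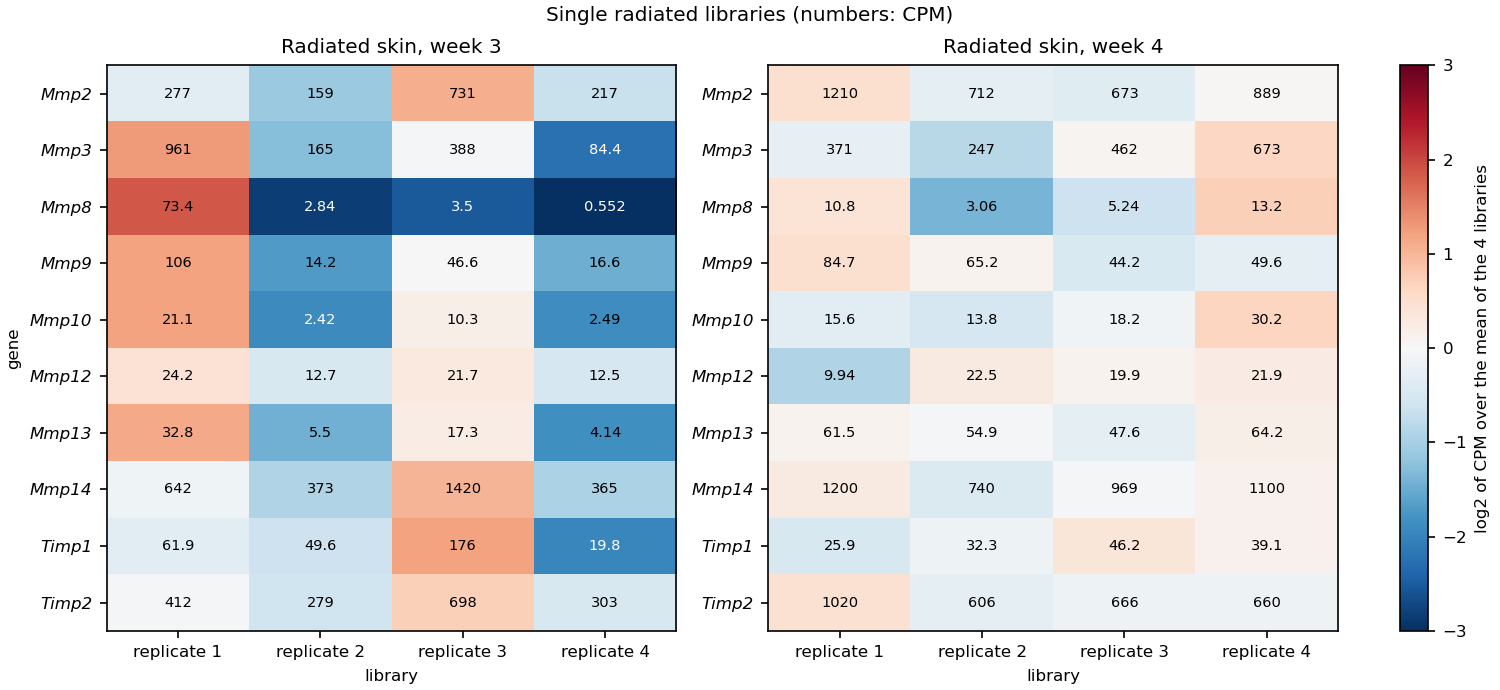
CPM of the 10 genes in the 4 radiated libraries of week 3 (left) and week 4 (right), coloured by the log2 of each value over the mean of its 4 libraries. In week 3 the red cells fall in replicates 1 and 3, with Mmp8 from 0.552 to 73.4 CPM, and week 4 is paler.

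Levels of different genes were compared per kb of exon. In sham skin the order was Timp2 (93.9 ± 34.1 CPM per kb, SD, n = 3), Mmp14 (35.4 ± 16.3), Mmp2 (25.5 ± 10.4) and Mmp3 (5.16 ± 2.30), and Mmp12 came next at 1.36 ± 0.133. In radiated skin of week 4 Mmp2 (258 ± 72.1, n = 4), Mmp3 (243 ± 99.9), Timp2 (190 ± 49.0) and Mmp14 (168 ± 33.6) came first. Mmp2 and Mmp3 lie within each other's SD, as do Timp2 and Mmp14, while Mmp3 and Timp2 lie apart by more than the SD of Timp2 and less than that of Mmp3. Timp1 followed at 40.4 ± 9.82, Mmp13 at 21.4 ± 2.78, Mmp9 at 17.2 ± 5.14 and Mmp10 at 11.3 ± 4.29 CPM per kb. Mmp8 at 3.32 ± 1.94 and Mmp12 at 2.57 ± 0.81 were lowest.

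Ratios of an enzyme to an inhibitor within a library were compared for 5 pairs in each week, 20 exact permutation tests (two-sided), for which 4 against 4 allows no p under 0.02857. The log2 ratio of Mmp14 to Timp2, in CPM, had a mean of -1.53 in control and 0.59 in radiated skin of week 3, and of -1.52 and 0.45 in week 4. That of Mmp2 to Timp2 went from -2.57 to -0.45 and from -2.74 to 0.23. The ratio of Mmp9 to Timp1 went the other way in week 4, from 4.56 to 0.75, and that of Mmp3 to Timp1 from 6.10 to 3.55. With 16 counts of Timp1 in the 4 control libraries of that week, these control ratios depend on the prior count of 2. In these 6 tests of weeks 3 and 4, and for Mmp2 to Timp2 in week 1 (-2.11 in control and -1.45 in radiated skin), the groups did not overlap, with an exact permutation p of 0.02857 and 0.08163 after Benjamini-Hochberg adjustment. None of the 20 passes 0.05 after adjustment. Mmp13 to Timp1 overlapped in every week. Mmp13 had 4 to 11 summed counts in the control skin of each week, so these control ratios depend on the prior count too.

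**Figure D4:**
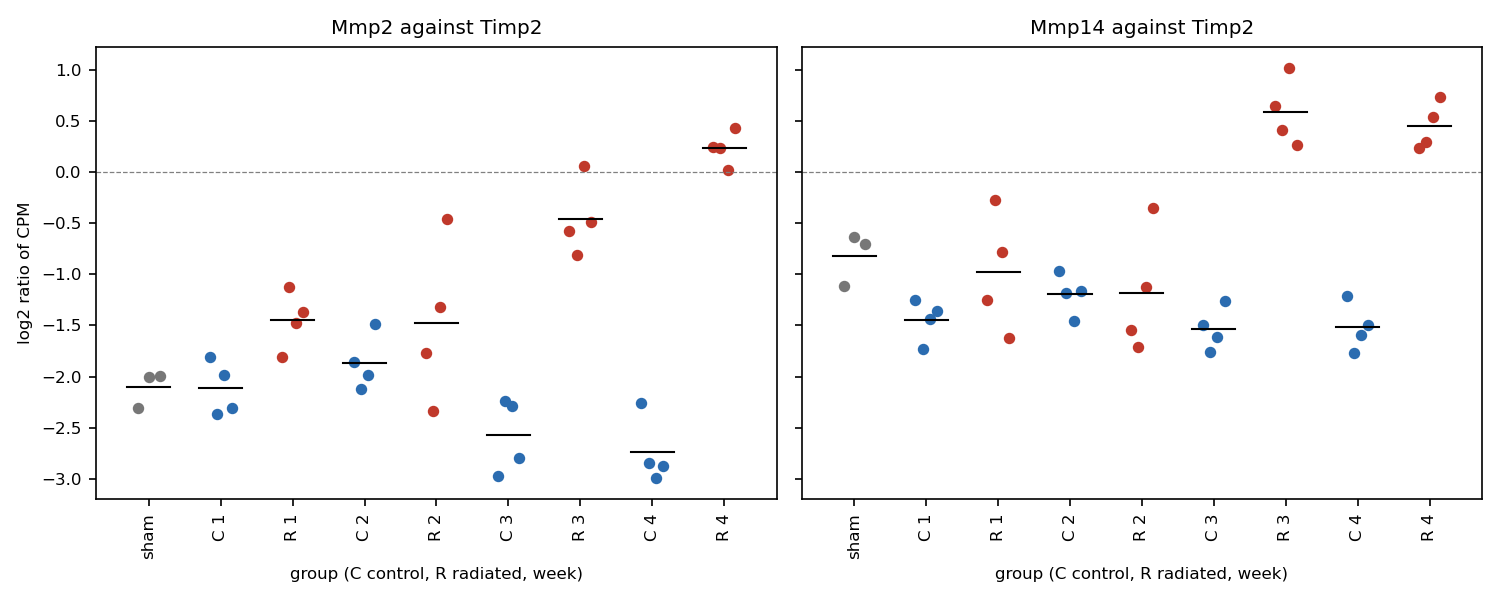
Log2 ratio of CPM of Mmp2 (left) and Mmp14 (right) to Timp2 in each library, by group (C control, R radiated, with the week); bars are means and the dashed line marks equal CPM. In weeks 3 and 4 radiated libraries lie above control libraries of the same week, and the Mmp14 ratio is above 0 in all these radiated libraries. The ratio does not allow for exon length. Per kb of exon, mean CPM of Mmp14 and Timp2 in radiated skin was 117 and 109 in week 3 and 168 and 190 in week 4.

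The chromosome 9 stretch holds 10 metalloproteinase genes in 427.1 kb (9:7272514-7699585). Of these, 9 were tested in week 4. Mmp13, Mmp1b, Mmp1a, Mmp10 and Mmp8 had 0 to 24 summed counts in control skin and passed the filter through their radiated libraries, so they had to differ to be tested, and their calls say nothing of how the stretch as a whole moved. Of the other 4 tested, Mmp12 and Mmp3 were called higher (24.2% of all genes). Mmp27, next to Mmp8, had 3.77 ± 0.893 CPM in control and 3.09 ± 0.446 CPM in radiated skin (log2 -0.28, edgeR adjusted p 0.3). Mmp20, the enamel enzyme, was at 0.42 (0.47), and Mmp7 had no count in these 8 libraries. Mmp1a and Mmp1b had no count in control skin of weeks 3 and 4 and 120.1 and 236.9 counts in radiated skin of week 4. Their sequences are close copies, so the split between them is uncertain.

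**Figure D5:**
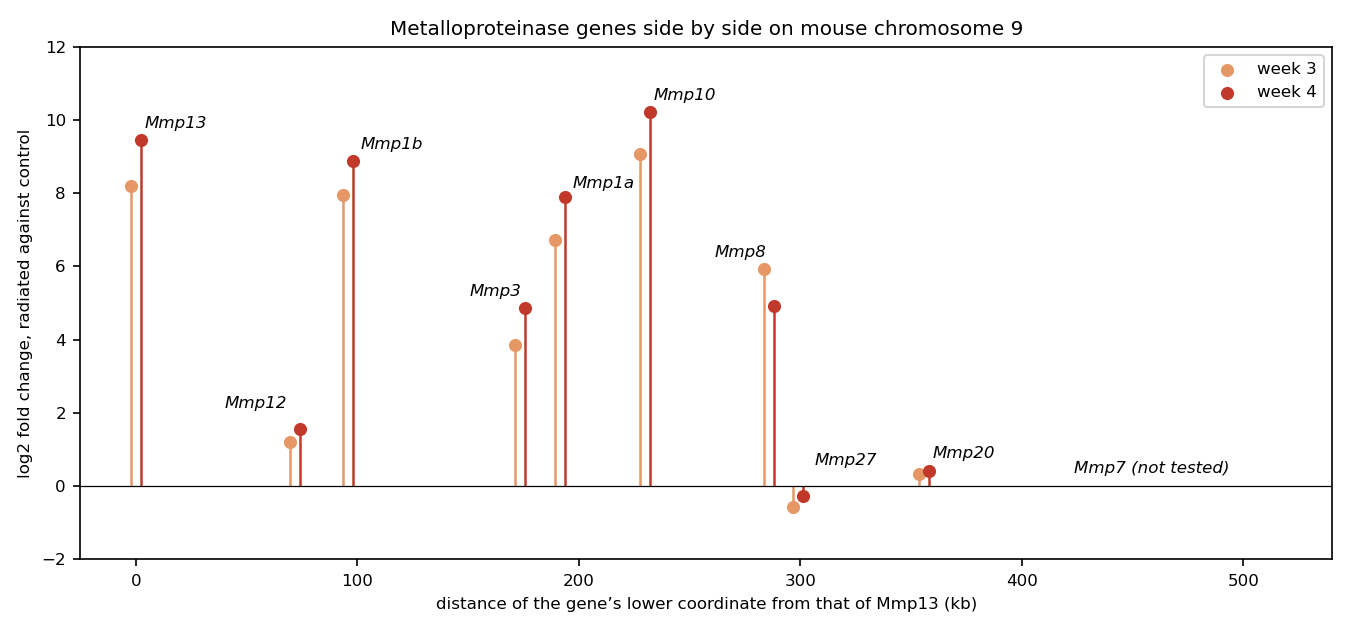
Log2 fold change of radiated against control skin in weeks 3 and 4 for the metalloproteinase genes of chromosome 9, placed by distance from Mmp13 in kb. Mmp12 and Mmp3 lie above 0 in both weeks and Mmp27 and Mmp20 near 0; the 5 genes with 0 to 24 control counts in week 4 are above 0 as the filter requires, and the fitted values of Mmp13, Mmp10, Mmp1a and Mmp1b depend on the prior count.

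Of the other 15 metalloproteinase genes listed, 13 were tested and 5 were higher in week 3, while 7 were higher and 2 lower in week 4 (median log2 fold changes 0.56 and 1.15). Over all genes tested, 13.6% were called higher in week 3 and 24.2% in week 4 (48.4% in either direction), and the counts of this and the next 3 lists stand beside those shares. Mmp1a and Mmp1b, with no count in control skin of these weeks, are among the higher ones and had to differ to be tested. Mmp19 was higher too, at 2.95 and 3.85 against control and 4.64 and 3.83 against sham. Mmp11 was higher than in control at 2.62 and 2.97 but not than in sham (-0.31 and 0.48, edgeR adjusted p 0.882 and 0.763). Mmp28, an epidermal enzyme, fell by 0.90 and Mmp15 by 0.43 in week 4, the latter not with the replicate block (edgeR adjusted p 0.0689). Among ADAM and ADAMTS proteases, 7 of 17 were higher in week 3 (5 with the replicate block, median 0.75), and in week 4 14 of 18 were higher and 1 lower (median 1.74), with the aggrecan-cutting Adamts4 at 4.99. Of the plasminogen system, which activates some proenzymes, 3 of 6 were higher in week 3 (2 with the replicate block) and 5 of 6 in week 4 (medians 0.84 and 2.13), with the receptor Plaur at 3.30 in week 4. Of the cathepsin list, 6 of 7 were higher in both weeks and the inhibitor Cst3 fell by 0.50 in week 4 (medians 1.40 and 1.93), with the collagen-cutting Ctsk at 3.80.

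The gene most like each member was sought over the 35 libraries by the mean absolute difference of log2 CPM, each gene centred on its own mean, among the 16404 genes whose mean reached 1 CPM. The value is a description, since all genes share the same libraries. Mmp2 was closest to Ctsk (0.26) and Fbln2 (0.34), Mmp14 to Bmp1 (0.21) and Lrp1 (0.23), and Timp2 to Rnase4 (0.20) and C1qtnf1 (0.21). Mmp12 was closest to Thy1 and Ampd3 (0.27 each), Mmp3 to Il1rl1 (0.53) and Cd14 (0.59), and Mmp9 to Ifitm1 (0.59) and Hgf (0.61). Mmp8 was closest to Retnlg (0.77), a neutrophil gene. Mmp10 was closest to Saa3 (0.86) and Tnc (0.90), Mmp13 to Tnc (0.89) and Cemip (0.90), and Timp1 to Gm18787 (0.89) and Prg4 (0.92). Among the members themselves the closest pair was Mmp2 and Mmp14 (0.38).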

How the data were processed

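RNA of 35 skin libraries had been sequenced. The authors deposited estimated counts per gene, made with kallisto 0.46.2 after Trim Galore 0.6.7 on mm10, per the submitters' processing notes; the transcript release and the step from transcripts to genes are not given in the sources used here. These counts are not scaled between libraries, and 29.5% to 32.5% of a library's values are not whole, since kallisto splits reads that fit several transcripts. They were rounded for the tests.

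Tests used edgeR 4.0.16 in R 4.3.3 (filterByExpr, TMM scaling, quasi-likelihood F test, Benjamini-Hochberg adjustment over all genes tested, threshold 0.05), with only the compared groups in each fit; the standard error is the log2 fold change divided by the square root of F. The interaction of week and radiation was fitted over 32 libraries. CPM use TMM factors over 19813 genes, and log2 CPM add a prior count of 2. No libraries held identical values, and the lowest reduced chi-square between replicates was 21.2. Positions and exon lengths come from GENCODE M21, which held 35945 of the 36106 identifiers, and promoter windows from RefSeq.

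Radiated and control libraries that share a week and a number were treated as 1 mouse, because 19 mice gave 35 samples; their deviations from the group means correlated at 0.07, 0.17, 0.05 and -0.02 on average in weeks 1 to 4. The alternatives were total-count scaling, DESeq2's size factors, DESeq2 1.42.0, no filter, 1 fit of all libraries, the replicate block and leaving out each library. The scripts were tested on simulated data. The members and gene lists were chosen with earlier results of these data known. All 10 members are named, and of other lists the called genes with large or small changes and those that serve as background; for likeness the 2 closest genes with a mean of 1 CPM or more. Some genes that this rule names are not reported here.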

Additional observations from a re-analysis of the deposited data

Results flagged for a closer look

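In groups of 4 libraries, 10 of 80 gene and group combinations had a library that stood apart from the other 3, where chance gives about 1 in 20. A group with counts in only 1 library is flagged in any case, as Mmp10 in control skin of weeks 3 and 4 and Mmp8 in control skin of week 2. The 10 of 80 can therefore not be set against that rate. Mmp8 was at 73.4 CPM in radiated replicate 1 of week 3. Timp2 reached 1020 CPM in radiated replicate 1 of week 4. In week 2, radiated skin had Mmp2 at 115 CPM in replicate 2, the lowest of its group, Mmp9 at 5.78 CPM in replicate 3 and Mmp13 at 2.12 CPM in replicate 4. Control skin of week 2 had Mmp10 at 0.99 CPM and Mmp8 at 0.261 CPM, both in replicate 4. The other 3 were Mmp8 at 0.809 CPM in radiated replicate 2 of week 1, Mmp10 at 0.045 CPM in control replicate 1 of week 3 and Mmp10 at 0.0442 CPM in control replicate 2 of week 4. Both of these Mmp10 values are under the floor.

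For 7 of the 10 genes the effect of radiation differed between weeks, by the interaction test of edgeR (15.6% of all genes were called). Mmp10 and Mmp13 entered the model through their radiated libraries, and among the 7 genes tested in every comparison 5 were called. The adjusted p was 7.13e-05 for Timp1, 8.62e-05 for Mmp3, 0.000441 for Mmp9, 0.00114 for Mmp14, 0.00124 for Mmp10, 0.0018 for Mmp2 and 0.00236 for Mmp13.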

How the results depend on the processing

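For 50 tested gene results (radiated against control in weeks 2 to 4, radiated against sham in weeks 3 and 4, and against sham also Mmp3 and Timp1 in radiated skin of week 2 and Mmp3 in control skin of week 1), 276 of 300 values under other settings kept their direction and side of the threshold, 9 lost the call, 15 gained it and 0 changed sign. With a library left out, 332 of 377 did, 38 lost the call, 5 gained it and 2 changed sign, both for Timp2 in radiated against sham skin of week 3, at -0.05 and 0.00 (range -0.05 to 0.58). Counts of called genes that moved include the following. Radiated against control in week 2 gave 4 with DESeq2 and 3 with the replicate block. Radiated against sham in week 1 gave 2 with DESeq2, and 1 with no filter and with all 35 libraries in the fit. In week 2 it gave 1 with total-count scaling and 4 with all 35 libraries. Against sham, DESeq2 also called Mmp2 in week 2 (DESeq2 adjusted p 0.00397), and Mmp12 and Mmp14 in week 3 (0.0281 and 0.0049). Control against sham gave 0 in week 1 with total-count scaling, with all libraries and with the replicate block, and 3 with DESeq2; DESeq2 gave 2 in week 3 and 1 in week 4. Leaving out a library gave 0 to 1 (week 1), 0 to 2, 7 to 9 and 9 to 10 (week 4) for radiated against control, 0 to 1, 0 to 2, 3 to 9 and 8 to 9 against sham, 0 to 1, 0 to 0, 0 to 1 and 0 to 0 for control against sham, and 7 to 7 for the interaction. The cause of these moves was not tested. Among the 10 genes, the replicate block changed the calls between radiated and control skin that the report gives and no other. Sham mice share only a number with the others; with that block, radiated against sham gave 8 calls in week 4 and 5 in week 3. DESeq2 gave no adjusted p for Mmp8 in week 3, against control or sham skin. These values are among the 300, though they fall on no side of the threshold. Total-count scaling shifted the median of all genes by 0.136 in week 1 and 0.235 in week 3. Counts near 0 in control skin limit the fold changes of Mmp10, Mmp13 and Timp1.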

Other observations

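In week 1, radiated replicate 2 had wound keratins summing to 14300 CPM, as high as the 10000 to 13400 CPM of week 4. In that library Mmp3 was at 17.3 CPM, Mmp10 at 0.378, Mmp13 at 0.27 and Timp1 at 1.46 CPM, while the lowest radiated libraries of week 4 had 247, 13.8, 47.6 and 25.9 CPM. In week 2, radiated replicate 4 had a wound keratin sum of 13700 CPM, with Mmp3 at 39.0, Mmp10 at 2.45, Mmp13 at 2.12 and Timp1 at 10.0 CPM. It was the highest radiated library of that week for Mmp10, Mmp13 and Timp1, and not for Mmp3. These libraries were picked after their values were seen, and the part of wound keratins in these levels was not tested.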
